A study of Mus musculus with 64 samples.

Results

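Transcripts of 8 genes that mark pyramidal neurons of the hippocampal fields CA1 and CA2 were examined. The 5 CA1 genes were *Wfs1*, *Fibcd1*, *Pou3f1*, *Man1a* and *Mpped1*, and the 3 CA2 genes were *Amigo2*, *Rgs14* and *Pcp4*. They were chosen by gene symbol through their Ensembl identifiers, and all 8 were found among the 18432 genes of the table. *Fibcd1* fell in the hippocampus of adult mutant mice to a mean of 32.5% ± 9.67 of the WT level at postnatal week (PWK) 14 and 51.4% ± 13.8 at PWK 28 (SD, n = 4), while none of the 8 genes was called between genotypes at PWK 1 or 7 in either region, where at most 0.0218% of all genes were. *Wfs1*, also a CA1 gene, rose in the hippocampus at PWK 28 and in the frontal cortex at PWK 14 and 28.

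CA1 pyramidal neurons are the main output of the hippocampus proper and receive the Schaffer collaterals of CA3. CA2 is the small field between CA1 and CA3, with pyramidal neurons known for their role in social memory and for their resistance to synaptic plasticity and to injury. *Wfs1* encodes wolframin, a membrane protein of the endoplasmic reticulum, *Fibcd1* a receptor that binds acetylated sugars such as chitin, *Pou3f1* a POU-domain transcription factor, and *Man1a* a mannosidase that trims N-glycans in the Golgi. *Mpped1* encodes a protein with a metallophosphoesterase domain. Of the CA2 genes, *Amigo2* encodes an adhesion protein with leucine-rich repeats, *Rgs14* a regulator of G protein signaling that limits plasticity in CA2 neurons, and *Pcp4* a small modulator of calmodulin.

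RNA was sequenced from the frontal cortex and hippocampus, both hemispheres together, of knock-in (KI) mice, whose genotype *Cyfip2* +/R87C gives 1 allele the Arg87Cys change, and of wild-type (WT) littermates. The strain was C57BL/6N throughout. CYFIP2 is a subunit of the WAVE complex that controls actin assembly. Tissue was taken at PWK 1, 7, 14 and 28, with 4 libraries in each of the 16 groups of genotype, region and age, 64 in all. Both regions came from each mouse, and comparisons between regions treated their libraries as independent. No other allele or agent was given in the labels for either genotype. The knock-in is present in every cell of the mouse, so a change in a tissue cannot be assigned to one cell type. Values are normalized counts, estimated read counts that the authors scaled with DESeq2 over all libraries.

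Library totals lay between 29.2 and 32.6 M normalized counts, and scaling has made them alike, so sequencing depth could not be read from them. The lowest value of any of the 8 genes was 89.0 and none was at 0. The knock-in changes a codon and not the copy number of *Cyfip2*, so its RNA level does not check the allele. In the hippocampus at PWK 14 *Cyfip2* was at 31256, 31064, 31149 and 35756 in WT and 20608, 34100.2, 34409 and 25379.8 in KI. In the cortex its KI libraries were all below the WT libraries at PWK 14 (28584 to 38683 against 39966.5 to 44053). The same held at PWK 28 (21597 to 30055 against 34022 to 35279). At PWK 7 they were all above (37662 to 38975 against 34519 to 36129). Of all genes 7.51%, 11.8% and 2.45% had such gaps in these directions. In the hippocampus at PWK 28 the genotypes overlapped. One KI library of the hippocampus at PWK 14, replicate 1, stood apart: *Gfap*, an intermediate filament of astrocytes, was at 131431 there, at 40059 to 47169 in the other 3 KI libraries and at 7502 to 9231 in WT, and the water channel *Aqp4* was at 26864 there and at 7099 to 7849 in the other KI libraries. Differences of the 8 genes at that age are therefore also given without it. In WT mice at PWK 14 the labelled tissues differed in markers of the other hippocampal fields. All 5 CA3 genes and 6 of 7 dentate granule genes were higher in hippocampus, as were 17% of all genes. All tissue was bulk, so fewer cells of a type and less RNA per cell cannot be told apart in any value here.

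The genes lie on 7 chromosomes of the mouse build GRCm38. *Wfs1* lies at chr5:36966104-36989205 on the minus strand, *Fibcd1* at chr2:31813290-31846005 (minus), *Pou3f1* at chr4:124656807-124660655 (plus), *Man1a* at chr10:53904785-54076609 (minus), *Mpped1* at chr15:83779467-83858494 (plus), *Amigo2* at chr15:97244125-97247287 (minus), *Rgs14* at chr13:55369732-55384687 (plus) and *Pcp4* at chr16:96467606-96525793 (plus). An exon of *Pcp4* overlaps one of *Igsf5* on the same strand, so reads could be split between them and the *Pcp4* values are uncertain to that extent. *Pou3f1*, *Man1a* and *Amigo2* overlap exons of *Gm2164*, *Gm16998* and *Pced1b* on the opposite strand, and the library kit kept the strand.

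The 250 bases before the RefSeq start site are shown for *Fibcd1* and *Amigo2*, the CA1 and CA2 genes that both fell in the KI hippocampus at PWK 14, and for *Pcp4*, a CA2 gene that was not called there. Sequences are from RefSeq on GRCm38.p6, written 5′ to 3′ on the strand of the gene, and capitals mark matches on either strand to 6 motifs: TGACGTCA (the cAMP response element), TGANTCA (AP-1), CANNTG (E-box), ATGCAAAT (the octamer of POU factors), CCAAT and GGGCGG (the GC box).
Fibcd1, chr2:31846006-31846255, minus strand: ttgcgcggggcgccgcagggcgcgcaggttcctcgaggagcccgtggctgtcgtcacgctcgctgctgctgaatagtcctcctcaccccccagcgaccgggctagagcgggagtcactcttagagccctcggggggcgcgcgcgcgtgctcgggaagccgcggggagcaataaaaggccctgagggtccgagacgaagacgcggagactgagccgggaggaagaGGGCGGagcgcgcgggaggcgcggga
Amigo2, chr15:97247288-97247537, minus strand: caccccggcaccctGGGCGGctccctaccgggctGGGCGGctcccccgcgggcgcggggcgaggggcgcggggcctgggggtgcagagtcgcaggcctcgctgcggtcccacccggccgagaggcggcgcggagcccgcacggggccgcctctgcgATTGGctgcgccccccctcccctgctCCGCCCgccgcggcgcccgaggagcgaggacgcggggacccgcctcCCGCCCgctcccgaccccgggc
Pcp4, chr16:96467356-96467605, plus strand: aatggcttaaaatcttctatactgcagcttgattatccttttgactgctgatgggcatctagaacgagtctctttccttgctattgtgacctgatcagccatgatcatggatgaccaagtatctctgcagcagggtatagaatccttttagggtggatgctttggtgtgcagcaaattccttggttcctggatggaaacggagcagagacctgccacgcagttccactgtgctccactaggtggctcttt

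The *Fibcd1* window held 71.6% G and C, 34 CpG and 1 GC box. The *Amigo2* window held 84% G and C, 38 CpG, 4 GC boxes and 1 CCAAT box. The *Pcp4* window held 46.8% G and C, 3 CpG and none of the 6 motifs. Over all 32851 RefSeq promoter windows of this length the medians were 52.4% G and C and 6 CpG. The cAMP response element was in 1.55% of them, AP-1 in 6.75%, the E-box in 66.2%, the octamer in 1.6%, CCAAT in 33.8% and the GC box in 32.7%. *Pou3f1* and *Rgs14* had no entry. The windows of *Wfs1* (23 CpG, 4 GC boxes) and *Man1a* (31 CpG, 2 GC boxes) and the first of 2 windows of *Mpped1* (47 CpG, 7 GC boxes) overlapped exons and are not printed, and the second *Mpped1* window, with 2 CpG and no GC box, is also not printed. A high CpG count and at least 1 GC box were thus found for *Fibcd1* and *Amigo2*, which fell in the KI hippocampus. The same held for *Wfs1*, which rose there at PWK 28. It also held for *Man1a* and the first window of *Mpped1*, genes that were not called there.

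In the WT hippocampus at PWK 14 the levels per kilobase of exon ordered the genes from *Mpped1* at 1551 ± 92.9 normalized counts and *Pcp4* at 1431 ± 40.8 to *Man1a* at 259 ± 16.1 and *Amigo2* at 231 ± 11.9 (SD, n = 4). *Wfs1* was at 1215 ± 215, *Fibcd1* at 979 ± 112, *Rgs14* at 618 ± 69.5 and *Pou3f1* at 337 ± 34.8. The single libraries overlapped between *Pcp4* and *Wfs1*, between *Wfs1* and *Fibcd1* and between *Man1a* and *Amigo2*, so these neighbors did not separate beyond their spread.

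Most of the genes were higher in the hippocampus than in the frontal cortex of WT mice. At PWK 14, 6 of 8 genes were higher and 2 lower, while 34.6% of all genes were called. *Fibcd1* had the widest gap of the 8 genes at every age. At PWK 14 its 4 hippocampal libraries held 5126, 4909.5, 3903 and 4660.3 normalized counts and its cortical libraries 244, 173, 247 and 229. The groups lay far apart (16.9% of all genes had all hippocampal libraries higher), with a log2 difference of 4.38 (SE 0.116, limma adjusted p = 4.41e-10), or 20.8-fold. *Amigo2* (1.55), *Rgs14* (1.08), *Man1a* (1.04), *Pou3f1* (1.02) and *Wfs1* (0.60) had smaller log2 differences at that age, with limma adjusted p of 0.00174 or below. *Mpped1* and *Pcp4* went the other way, with log2 differences of −0.32 and −0.96. *Pcp4* held 1430.4, 1528, 1463 and 1453 in hippocampus and 2911, 2769, 2718 and 3072 in cortex, with no overlap, as for the 17.8% of all genes with all hippocampal libraries lower. These 2 names therefore mark hippocampal fields but were more abundant in RNA of the frontal cortex.

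The directions were the same at PWK 7 and 28, where again 6 genes were higher and 2 lower against a background of 40.8% and 37.8% of all genes called. At PWK 1, where 34.7% of all genes were called, 4 genes were higher and 2 lower, and *Pou3f1* and *Man1a* were not called. *Pou3f1* was at 1382 to 1594 in hippocampus and 1101 to 1609.8 in cortex at that age, with a log2 difference of 0.08. *Man1a* had a log2 difference of 0.18 (limma adjusted p = 0.0681), which was called when equal replicate numbers were treated as pairs (limma adjusted p = 0.015). At PWK 1 *Mpped1* was at 6965 to 7869 in hippocampus and 12444 to 16317 in cortex, a log2 difference of −1.04 and its widest of the 4 ages.

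**Figure D1:**
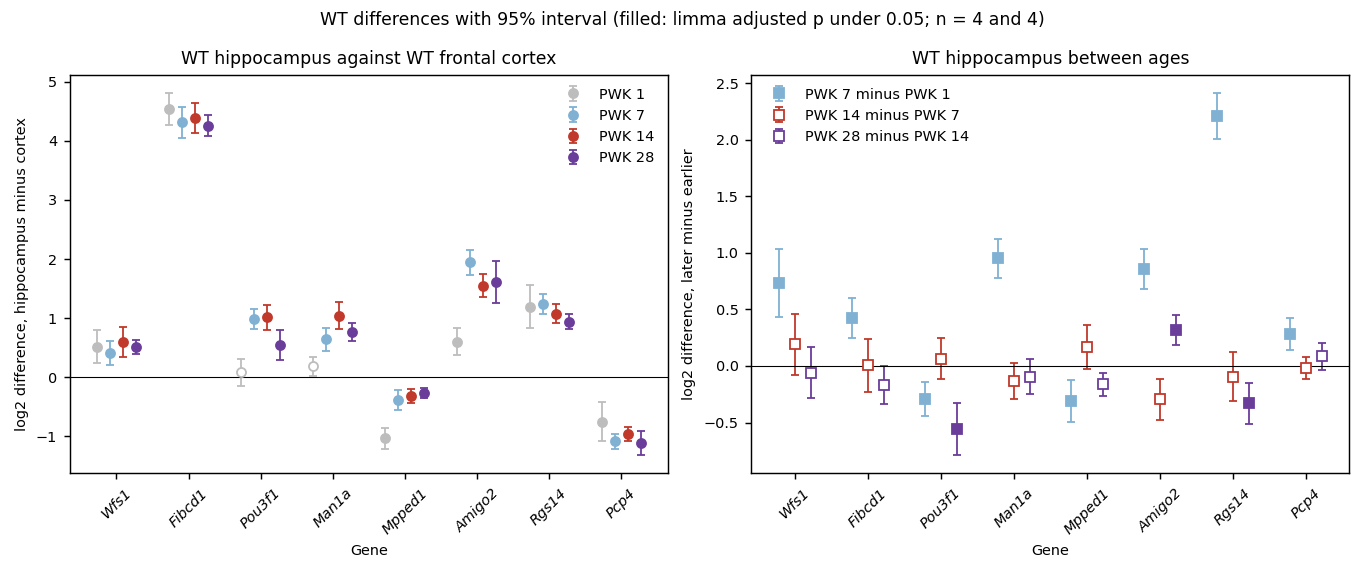
log2 differences of the 8 genes in WT mice with 95% intervals, hippocampus minus cortex at each age on the left and later minus earlier age within hippocampus on the right (filled symbols, limma adjusted p under 0.05; 4 libraries per group). *Fibcd1* stood between 4.25 and 4.54 at all ages, *Mpped1* and *Pcp4* lay below 0, and *Rgs14* rose by 2.21 from PWK 1 to PWK 7.

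Within the WT hippocampus all 8 genes changed between PWK 1 and PWK 7, 6 upward and 2 downward, while 61.3% of all genes were called. *Rgs14* rose most, from 619, 573, 665 and 544 to 2812, 3129, 2317 and 2929.7 normalized counts. The log2 difference was 2.21 (SE 0.0921, limma adjusted p = 5.15e-09). *Man1a* rose by 0.95, *Amigo2* by 0.86, *Wfs1* by 0.73, *Fibcd1* by 0.42 and *Pcp4* by 0.28 on the log2 scale, all called by limma. The *Pcp4* value fell to 0.05 and was no longer called when libraries were centered on 6 excitatory neuron genes, a scaling that moved the median of all genes to −0.22. *Pou3f1* fell by 0.29 and *Mpped1* fell by 0.31.

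Between PWK 7 and PWK 14 none of the 8 genes was called by limma, 1 had an unadjusted p under 0.05, and 1.99% of all genes were called and 17.3% had such an unadjusted p. The gene with the unadjusted p was *Amigo2*, at 1005, 865, 777 and 953 at PWK 7 and 746, 768, 679.9 and 726 at PWK 14. Its groups did not overlap, with PWK 14 the lower as for 5.29% of all genes (log2 difference −0.30, limma adjusted p = 0.0934). Between PWK 14 and PWK 28, 3 of 8 genes were called and 8.11% of all genes. *Pou3f1* fell by 0.56 (limma adjusted p = 0.0127) to 720.1, 1033, 861 and 930.3, *Amigo2* rose by 0.32 (0.0126) to 975, 888, 911 and 862 and *Rgs14* fell by 0.33 (0.0335) on the log2 scale. The *Rgs14* call held in 2 of the 8 fits that left out a library, and was lost with all 64 libraries in the fit (limma adjusted p = 0.21) and with centering on excitatory neuron genes (−0.04, 0.655), which moved the median of all genes to 0.29. The *Amigo2* call was also lost with all 64 libraries (0.166).

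KI and WT hippocampi were compared at each age. At PWK 14 *Fibcd1*, *Pou3f1* and *Amigo2* were lower in KI, no gene of the 8 was higher, and 5 were not called. Over all 18405 genes tested 15.6% were called, 7.64% as higher and 7.95% as lower. The median log2 difference of the 8 genes was −0.32 and that of all genes 0.01. At PWK 28, 1 gene was higher (*Wfs1*), 1 lower (*Fibcd1*) and 6 were not called, with 15.8% of all genes called (8.92% higher, 6.91% lower) and a median of −0.05 for the 8 genes. The 2 ages used separate mice of both genotypes. By the paper KI mice started to die around PWK 14, so the KI mice at PWK 28 were survivors. The paper also presents the PWK 28 sequencing as an added analysis. Neither point can be told apart from age here.

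*Fibcd1* held 5126, 4909.5, 3903 and 4660.3 normalized counts in the WT hippocampus at PWK 14 and 1049, 2128, 1410.4 and 1465 in KI. Every KI library was below every WT library, as was so for 12.2% of all genes, and the single KI libraries were at 22.6% to 45.8% of the WT mean. The log2 difference was −1.66 (SE 0.184, 95% interval −2.07 to −1.25, limma adjusted p = 0.0011). Without KI replicate 1 it was −1.50 (limma adjusted p = 0.00033). At PWK 28 *Fibcd1* held 4159, 4391, 4048 and 3913 in WT and 1336, 2674, 2341 and 2136 in KI. The groups were again apart, as for the 9.77% of all genes whose KI libraries were all lower, with KI at 32.4% to 64.8% of the WT mean and a log2 difference of −1.0 (SE 0.166, limma adjusted p = 0.00243). The call held at both ages in each of the 8 fits that left out a library and in the 9 other settings tried.

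*Pou3f1*, the transcription factor, held 1299, 1172, 1235 and 1482 in WT and 736, 1050.3, 975 and 814 in KI at PWK 14. The groups did not overlap, and the log2 difference was −0.55 (SE 0.121, limma adjusted p = 0.0166). It was −0.46 (0.0174) without KI replicate 1, and leaving out WT replicate 1 or WT replicate 4 ended the call (0.0514 and 0.0521). At PWK 28 the libraries ran from 720.1 to 1033 in WT and from 683 to 1008 in KI and overlapped (log2 difference −0.12, limma adjusted p = 0.584). Means at PWK 14 and 28 were 1297 and 886 in WT and 894 and 817 in KI. The smaller gap thus went with a lower WT level and not with a higher KI level.

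*Amigo2*, the adhesion protein, held 746, 768, 679.9 and 726 in WT and 344, 508, 587 and 584 in KI at PWK 14. No KI library reached the WT range, and KI replicate 1 was the lowest of the 8. The log2 difference was −0.56 (SE 0.158, limma adjusted p = 0.0416), and it was −0.38 (0.0128) without KI replicate 1. The call was lost without KI replicate 2 (0.0705) and without any one of the WT libraries (0.0678 to 0.109). Centering the libraries on 6 excitatory neuron genes also ended the calls of *Pou3f1* (−0.39, 0.151) and *Amigo2* (−0.40, 0.247), with the median of all genes moved to 0.16. At PWK 28 *Amigo2* was at 862 to 975 in WT and 751 to 918 in KI, overlapping and not called (log2 difference −0.16, limma adjusted p = 0.168).

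*Mpped1* held 6449, 7262, 6477 and 6467 in WT and 3628, 5838, 5582 and 5410.2 in KI at PWK 14. All KI values were below all WT values, but the gene did not pass the test (log2 difference −0.40, SE 0.137, limma adjusted p = 0.0752). KI replicate 1 was far below the other KI libraries. Without it the difference was smaller, −0.25, and passed (limma adjusted p = 0.0224), so that 4 of the 8 genes were then lower while 17.4% of all genes were called. At PWK 28 *Mpped1* was at 5835 to 6259.7 in WT and 5228 to 6049 in KI (log2 difference −0.04, limma adjusted p = 0.649).

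**Figure D2:**
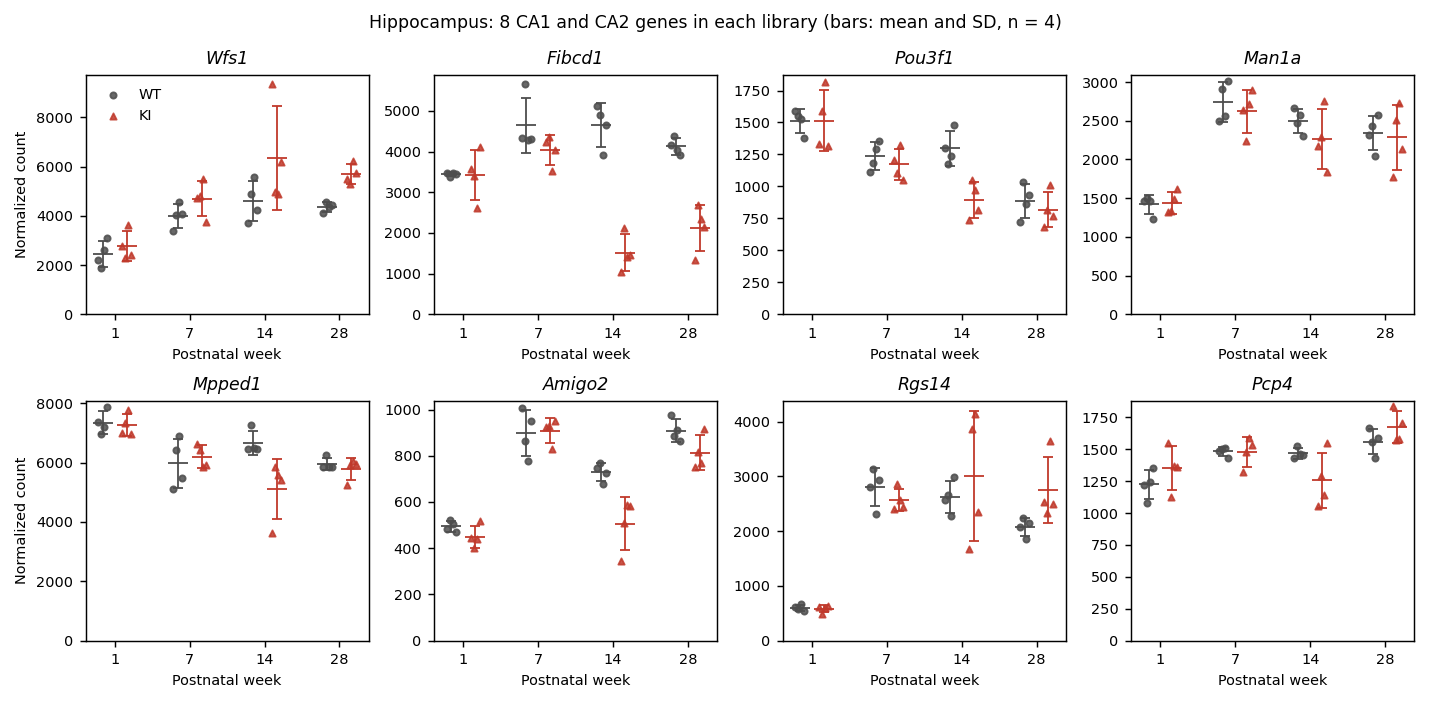
Normalized counts of the 8 genes in every hippocampal library by postnatal week (circles, WT; triangles, KI; bars, mean and SD, n = 4). *Fibcd1* KI libraries sit at 1049 to 2128 at PWK 14 and at 1336 to 2674 at PWK 28, below all WT libraries of those ages, and *Wfs1* KI libraries at PWK 28 sit above the WT libraries.

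*Wfs1* was called as higher in KI at PWK 28, where it held 4095, 4579.9, 4372 and 4422 in WT and 5480.4, 5289, 6231 and 5739 in KI. All KI libraries were above all WT libraries, as was so for 11.8% of all genes, at 121% to 143% of the WT mean, with a log2 difference of 0.38 (SE 0.0569, limma adjusted p = 0.00149). The adjusted p was 0.0573 when all 64 libraries shared a single estimate of the spread. At PWK 14 *Wfs1* held 3691, 4897, 5572 and 4248 in WT and 9366, 4962, 4878 and 6194 in KI. KI replicate 1 was far above the rest and the other 3 KI libraries lay within or just above the WT range (log2 difference 0.43, SE 0.205, limma adjusted p = 0.186). Without that library the difference was 0.22 (0.293).

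*Rgs14* and *Pcp4*, the other CA2 genes, were not called at either age. *Rgs14* held 2566, 2661, 2266 and 2981 in WT and 1664, 3857, 4142 and 2343 in KI at PWK 14. KI replicates 2 and 3 were above and KI replicate 1 below all WT libraries, so the KI group was spread on both sides (log2 difference 0.11, SE 0.258, limma adjusted p = 0.811), and without KI replicate 1 the value was 0.36 (0.198). The same KI replicates 1 and 4 that were lower in *Rgs14* than replicates 2 and 3 were also lower in *Cyfip2*. At PWK 28 *Rgs14* held 2076, 2235, 1851 and 2146 in WT and 2527, 2323, 3649 and 2498 in KI. The groups did not overlap, with KI the higher, and the gene did not pass the test (log2 difference 0.38, SE 0.122, limma adjusted p = 0.0547). It passed without KI replicate 2 (0.46, 0.0339), without KI replicate 3, the highest library (0.24, 0.0452), with sample weights (0.39, 0.042) and with centering on excitatory neuron genes (0.41, 0.0164). *Pcp4* held 1430.4, 1528, 1463 and 1453 in WT and 1055, 1291, 1139.7 and 1549 in KI at PWK 14. KI replicate 4 was above all WT libraries and the other 3 were below them (log2 difference −0.24, 95% interval −0.48 to 0.01, limma adjusted p = 0.167). Without KI replicate 4 *Pcp4* was called as lower (−0.34, 0.0229), and without KI replicate 1 its value was −0.16 (0.289). At PWK 28 the log2 difference of *Pcp4* was 0.10 (limma adjusted p = 0.327, 95% interval −0.04 to 0.25).

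*Man1a*, the Golgi mannosidase, overlapped between genotypes at both ages. At PWK 14 it was at 2298 to 2659 in WT and 1835 to 2759 in KI (log2 difference −0.16, 95% interval −0.41 to 0.09, and −0.14 without KI replicate 1). At PWK 28 it was at 2047 to 2573 in WT and 1777 to 2727 in KI (log2 difference −0.05, 95% interval −0.31 to 0.21).

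At PWK 1 and PWK 7 none of the 8 genes was called by limma in the hippocampus and 0 had an unadjusted p under 0.05. Of all genes 0.0109% and 0.0218% were called, and 5.46% and 6.22% had such an unadjusted p. *Fibcd1* held 4328, 5662, 4294 and 4296 in WT and 4231, 4347, 3521 and 4026 in KI at PWK 7. The groups overlapped, and the interval of the log2 difference ran from −0.41 to 0.01 (limma adjusted p = 0.819). At PWK 1 *Fibcd1* held 3479, 3376, 3475 and 3437 in WT and 3563, 3401, 2619 and 4108 in KI, with KI libraries on both sides of the WT values. *Wfs1* at PWK 7 held 3376, 4018, 4545 and 4062 in WT and 4727, 4811, 5512 and 3745 in KI, overlapping (log2 difference 0.23, limma adjusted p = 0.827).

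The change of the genotype difference between ages was tested in the hippocampus with the interaction in limma. From PWK 7 to PWK 14 it was called for *Fibcd1* alone of the 8 genes, against 10.3% of all genes. The *Fibcd1* difference became lower by 1.46 on the log2 scale (−1.46, SE 0.225, limma adjusted p = 0.000955), which held in all 16 fits that left out a library. *Amigo2* (−0.58, limma adjusted p = 0.062) and *Pou3f1* (−0.47, 0.0677) did not pass. From PWK 14 to PWK 28 limma called 0 of the 8 genes and 0% of all genes, while 5 of the 8 and 12.4% of all genes had an unadjusted p under 0.05. The *Fibcd1* difference was smaller at PWK 28 by 0.65 (95% interval 0.07 to 1.24, limma adjusted p = 0.349), so a return toward WT between these ages was not shown after adjustment.

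**Figure D3:**
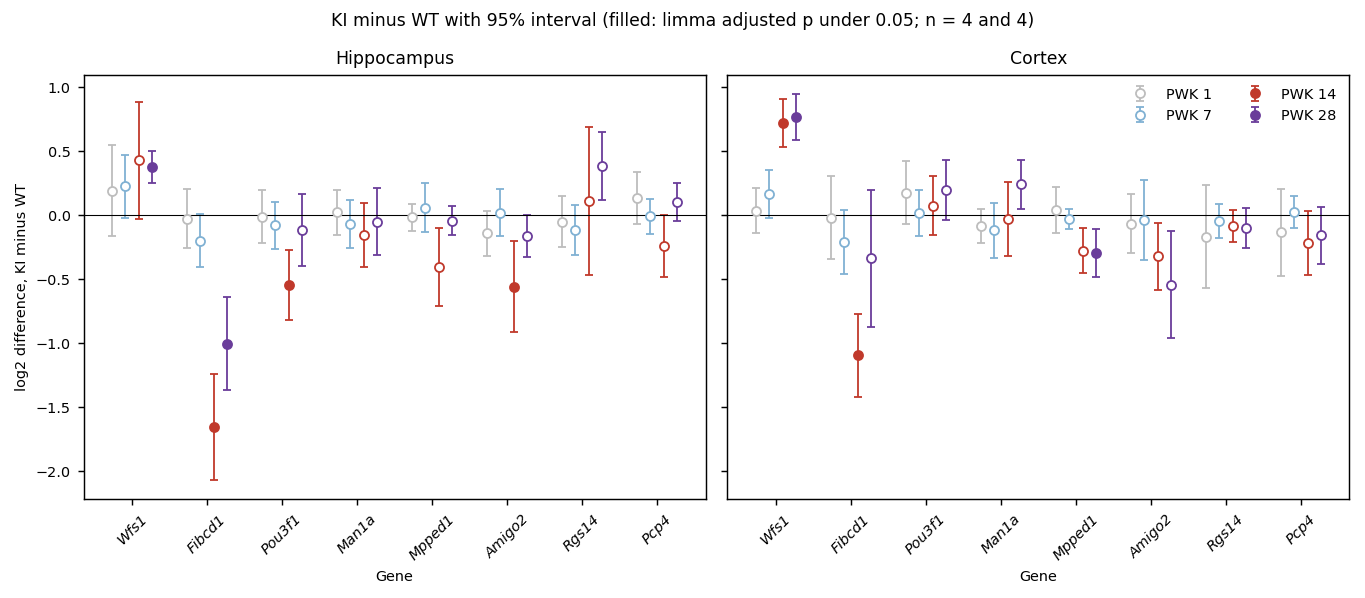
log2 differences of KI minus WT with 95% intervals for each of the 8 genes at the 4 ages in hippocampus and cortex (filled symbols, limma adjusted p under 0.05; 4 libraries per group). *Fibcd1* is at −1.66 and −1.0 in hippocampus at PWK 14 and 28 and at −1.10 in cortex at PWK 14, and *Wfs1* is at 0.72 and 0.77 in cortex at PWK 14 and 28.

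In the frontal cortex at PWK 14 *Wfs1* was higher, *Fibcd1* lower and 6 genes were not called, while 5.18% of all genes were called, 2.48% as higher and 2.7% as lower. *Wfs1* held 3196, 3373, 2604 and 2917 in WT and 5130, 4757, 5459.8 and 4544 in KI. The groups were apart, as for the 6.64% of all genes whose KI libraries were all higher, with KI at 150% to 181% of the WT mean and a log2 difference of 0.72 (SE 0.086, limma adjusted p = 0.002). *Fibcd1*, a weakly expressed gene in cortex, held 244, 173, 247 and 229 in WT and 97.1, 107, 122 and 89.0 in KI. All KI libraries were below all WT libraries, as was so for 7.51% of all genes, at 39.8% to 54.4% of the WT mean, with a log2 difference of −1.10 (SE 0.149, limma adjusted p = 0.00347).

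*Amigo2* in cortex at PWK 14 held 238, 234, 295 and 232 in WT and 176, 194, 229 and 199.9 in KI. The KI libraries were all below the WT libraries, but the gene did not pass the test (log2 difference −0.32, limma adjusted p = 0.152). *Mpped1* held 8660.4, 8460.2, 7735 and 8319.7 in WT and 7783, 6143, 7312 and 6226 in KI. The highest KI library was just above the lowest WT library (log2 difference −0.28, limma adjusted p = 0.0731). It passed with all 64 libraries in the fit (0.0414), with sample weights (−0.31, 0.0277) and without KI replicate 1 (−0.34, 0.0214). The adjusted p of *Pou3f1*, *Man1a*, *Rgs14* and *Pcp4* was 0.307 or above, and *Pcp4* was called as lower without KI replicate 2 (−0.35, 0.0445, against −0.22).

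In the cortex at PWK 28 *Wfs1* was higher, *Mpped1* lower and 6 genes were not called, while 22.2% of all genes were called, 12.2% as higher and 10% as lower. *Wfs1* held 3241, 2868, 3233 and 2924 in WT and 5671, 4526, 5684 and 5099 in KI. The groups did not overlap, with KI the higher as for 14.1% of all genes, and had a log2 difference of 0.77 (SE 0.081, limma adjusted p = 0.000294), and the calls of *Wfs1* at both cortical ages held in every fit that left out a library. *Mpped1* held 6767, 7458, 7241 and 7158 in WT and 5134, 6843, 5414 and 6099.6 in KI. KI replicate 2 reached the WT range (log2 difference −0.29, SE 0.0841, limma adjusted p = 0.0307). The *Mpped1* call was lost without KI replicate 1 or 3 or WT replicate 2, 3 or 4 (0.0679 to 0.0838).

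*Fibcd1* in cortex at PWK 28 held 193, 205, 214 and 254 in WT and 232, 95.5, 192 and 198 in KI. One KI library was far below and the other 3 lay within or near the WT range (log2 difference −0.34, SE 0.242, limma adjusted p = 0.354). *Amigo2* held 251, 219, 383 and 369 in WT and 203, 176, 241 and 199 in KI, with the groups overlapping in 1 KI library (log2 difference −0.54, limma adjusted p = 0.063). *Man1a* held 1348, 1269, 1486 and 1397 in WT and 1802, 1387, 1659 and 1675 in KI (log2 difference 0.24, limma adjusted p = 0.0696). Neither *Amigo2* nor *Man1a* passed the test. *Amigo2* passed with total-sum scaling (0.0445), centering (−0.67, 0.0234), all 64 libraries (0.00161), the replicate block (0.0309) and without WT replicate 2 (−0.69, 0.0288), and *Man1a* with sample weights (0.0425) and without KI replicate 2 (0.32, 0.00893). *Pou3f1* (0.20), *Rgs14* (−0.10) and *Pcp4* (−0.16) had log2 differences with adjusted p of 0.208 to 0.359, and *Pcp4* passed with centering (−0.29, 0.0421). At PWK 1 and PWK 7 limma called none of the 8 genes in cortex, and 0 had an unadjusted p under 0.05. Of all genes 0.00546% and 0.00545% were called, and 5.27% and 8.05% had such an unadjusted p.

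Genes of other cells also differed between genotypes in the adult cortex, where 5.18% of all genes were called at PWK 14 and 22.2% at PWK 28. Of 5 striatal projection neuron genes *Ppp1r1b*, the phosphatase inhibitor DARPP-32, was higher at PWK 14 (log2 difference 1.36, limma adjusted p = 0.0193) and at PWK 28 (1.1, 0.00166). The striatal genes summed to 3531 to 4501 in WT and 5231 to 14331 in KI at PWK 14, and to 3867 to 7951 in WT and 8098 to 9910 in KI at PWK 28, without overlap at either age. Of 6 interneuron genes 4 were higher and 1 lower at both ages, *Gad2* by 0.75 (0.0177) and 1.15 (0.00187), with a sum of 18688 to 20386 in WT and 23515 to 31585 in KI at PWK 14 and of 21704 to 27856 in WT and 30088 to 45055 in KI at PWK 28. Of 5 astrocyte genes *Gfap* was higher by 1.56 (0.0112) and 1.52 (0.00148). In all 2 astrocyte genes were higher and 1 lower at PWK 14, and 1 was higher and 2 lower at PWK 28, and the astrocyte sums overlapped between genotypes at both ages. Of 3 endothelial genes 2 were lower at PWK 14 and none was called at PWK 28. Of 6 pan-neuronal genes none was called at PWK 14 and 1 was higher at PWK 28, and of 6 pan-excitatory genes 1 was higher and 1 lower at PWK 14 and 2 were higher and 1 lower at PWK 28. The part of these cell types in the cortical values of the 8 genes was not tested.

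**Figure D4:**
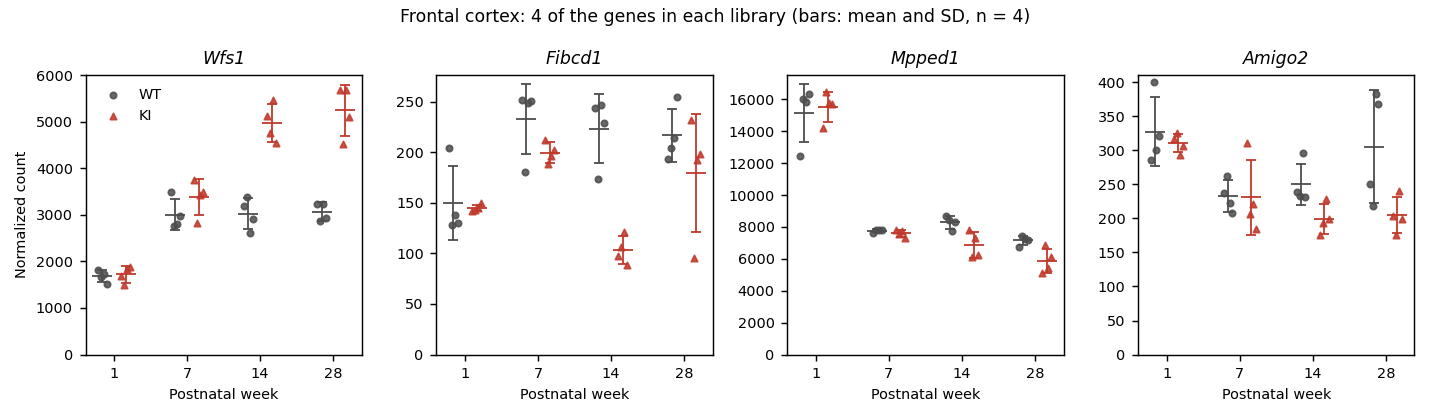
Normalized counts of *Wfs1*, *Fibcd1*, *Mpped1* and *Amigo2* in every cortical library by postnatal week (circles, WT; triangles, KI; bars, mean and SD, n = 4). *Wfs1* KI libraries at PWK 14 and 28 lie between 4526 and 5684, above all WT libraries of those ages, and the *Fibcd1* KI libraries at PWK 14 lie between 89.0 and 122.

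Whether the genotype difference itself differed between regions was tested with limma in 16 libraries at each adult age. At PWK 28 it was called for *Wfs1*, against 4.57% of all genes, with the hippocampal difference lower than the cortical one by 0.39 on the log2 scale (−0.39, SE 0.103, limma adjusted p = 0.0372). This call held in 5 of the 16 fits that left out a library and was lost with centering on excitatory neuron genes (−0.24, 0.207) and with all 64 libraries in the fit (0.267). At PWK 14 limma called 0 of the 8 genes and 2.85% of all genes, and 2 of the 8 and 17.7% of all genes had an unadjusted p under 0.05. The 2 were *Pou3f1* (−0.62, limma adjusted p = 0.057) and *Fibcd1* (−0.56, 0.236), so the lower *Fibcd1* of the hippocampus and of the cortex were not shown to differ in size. Both regions were dissected from each mouse, and the fit treated them as independent.

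Other genes of the same neurons were counted at PWK 14 in the hippocampus. The lists were chosen with earlier results of these data known, so their counts are no independent test of the 8 genes. Over all genes 7.95% were called as lower and 7.64% as higher. All 3 other CA1 genes were lower in KI, with a median log2 difference of −0.67. *Lefty1*, a secreted inhibitor of Nodal signaling, was at 254, 324, 235 and 289.8 in WT and 67.1, 133, 109.8 and 147 in KI (−1.31, limma adjusted p = 0.00686). *Ccn3*, a matricellular protein, had −0.67 (0.00951) and *Spink8*, a Kazal-type protease inhibitor, −0.42 (0.0313). Of the 8 other CA2 genes 2 were lower and none higher, with a median of −0.24. *Ntf3*, the growth factor neurotrophin-3, was at 174, 185, 201 and 207 in WT and 55.7, 68.4, 33.02 and 84.6 in KI, without overlap (−1.72, limma adjusted p = 0.00336). *Cacng5*, an auxiliary AMPA receptor subunit, had −0.67 (0.0112).

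The neighboring fields were counted the same way. Of 7 dentate granule genes 4 were lower and none higher, with a median of −0.66, and of 5 CA3 genes 1 was lower, with a median of −0.23. *Tdo2* had −1.87 (limma adjusted p = 0.0174), *Lct* −1.17 (0.018) and *Dsp*, the desmosomal protein desmoplakin, −0.66 (0.0181) among the dentate genes, and *Cpne4*, a copine, −0.68 (0.0224) among the CA3 genes. Lower values at PWK 14 were thus not restricted to CA1 and CA2 genes. The counts of the other CA1, other CA2, CA3 and dentate lists were the same without KI replicate 1. At PWK 28 none of the 3 other CA1 genes was called by limma, 0 had an unadjusted p under 0.05 and the median was −0.17. Over all genes 8.92% were called as higher and 6.91% as lower at that age. Of the other CA2 genes *Necab2* and *Adcy5* were then higher and *Ntf3* lower (−1.08, limma adjusted p = 0.00244). Among the CA3 genes *Nectin3* (−0.29, limma adjusted p = 0.03) and *Cpne4* (−0.48, 0.0047) were lower at PWK 28. Among the dentate genes *Dsp* was lower (−0.65, 0.0139) and *C1ql2* higher (0.54, 0.00251). No other gene of the CA3 and dentate lists was called at that age.

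Genes of all neurons and of other cells were counted beside these results. Of 6 pan-neuronal genes none was called by limma at PWK 14, 1 had an unadjusted p under 0.05, the median was 0.04, and their summed level was 132758 to 138420 in WT and 126985 to 142026 in KI. Of 6 pan-excitatory genes 1 was higher and 1 lower, with a median of −0.29 and a sum of 186791 to 242508 in WT and 131416 to 213498 in KI. Of 5 astrocyte genes 2 were higher, *Gfap* by 2.75 (limma adjusted p = 0.00129) and *Aqp4* by 1.33 (0.0376), and the sum was 41003 to 45257 in WT and 73320 to 192957 in KI. Most of that gap was *Gfap*. The astrocyte genes *Aldh1l1* (0.55), *Slc1a3* (−0.15) and *Gja1* (−0.07) were not called. Of 5 microglial genes none was called, with a median of 0.51 and a sum of 6118 to 7609 in WT and 6616 to 18175 in KI. Of 5 oligodendrocyte and 3 endothelial genes none was called. The 3 choroid plexus genes, also not called, summed to 1920 to 101783 in WT and 1768 to 96033 in KI, a wide range within both genotypes.

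Of 6 interneuron genes 1 was higher, *Gad2* at 0.49 (limma adjusted p = 0.00376). Of 5 striatal genes *Drd1* was higher (2.07, 0.0015), and of 4 thalamic genes *Prkcd* was lower (−0.83, 0.0264). At PWK 28 the astrocyte sum was 42632 to 44272 in WT and 71271 to 82983 in KI, with 2 of 5 genes higher. *Aldh1l1* (0.05), *Slc1a3* (0.14) and *Gja1* (−0.07) were not called at that age. There 4 of 5 microglial genes were higher, with a sum of 6919 to 8051 in WT and 8982 to 9812 in KI. The pan-neuronal genes were again not called. No defining marker of these lists was at 0 in a hippocampal library of either age. The part of these cell types in the values of the 8 genes was not tested.

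**Figure D5:**
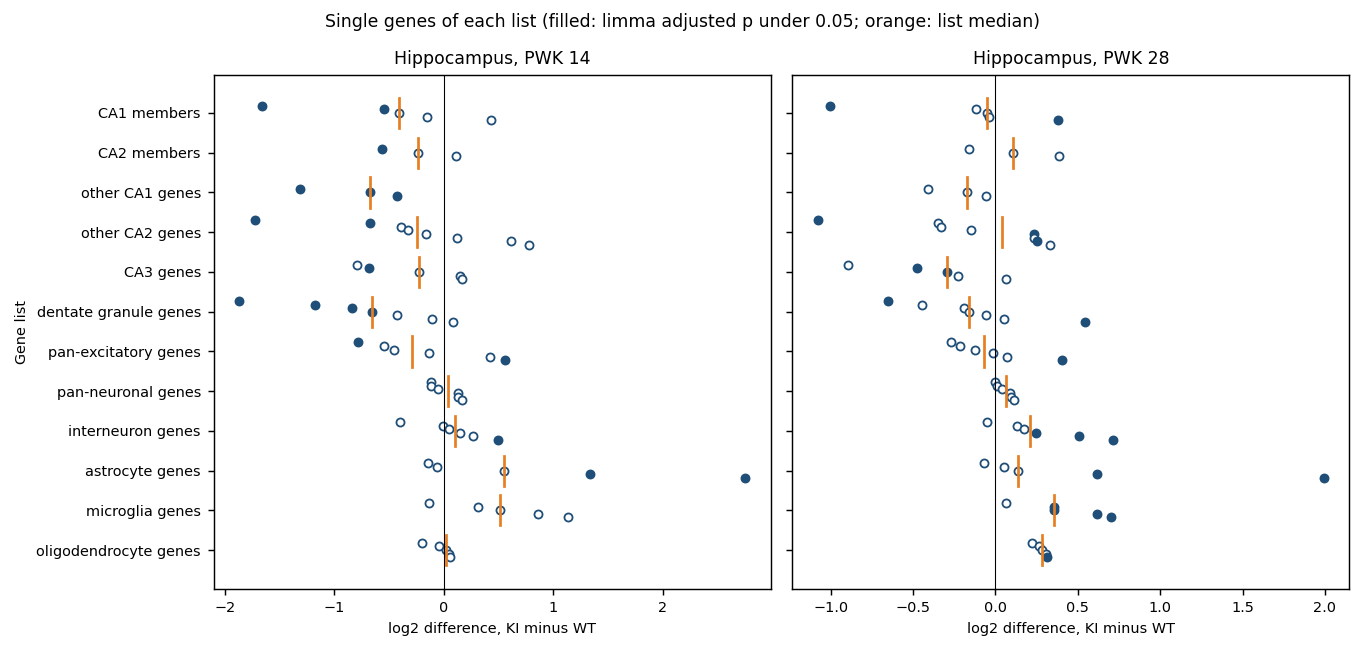
log2 differences of KI minus WT in the hippocampus for single genes of each list at PWK 14 and PWK 28 (filled, limma adjusted p under 0.05; orange line, median of the list). At PWK 14 the 3 other CA1 genes lie below 0 with a median of −0.67, while the pan-neuronal median is 0.04 and *Gfap* stands at 2.75.

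Likeness was measured as Pearson's r of log2 values over the 24 hippocampal libraries of PWK 7, 14 and 28, against 14046 genes, and is a description of libraries that share genotype and age groups and were scaled together. *Cpne6*, a copine, was most like *Fibcd1* (r = 0.978 over all, 0.855 within the 12 WT and 0.979 within the 12 KI libraries), followed by *Ankrd63* (0.961) and *Jph4* (0.959). *Cnih2*, an auxiliary AMPA receptor protein, was most like *Pou3f1* (0.914 over all, 0.889 in WT and 0.928 in KI). *Wipf3* was most like *Rgs14* (0.908 over all, 0.94 in WT and 0.9 in KI). The closest genes to the other 5 were *Hopx* for *Amigo2* (0.891), *E2f1* for *Wfs1* (0.879), *Morn4* for *Mpped1* (0.877), *Mgst3* for *Pcp4* (0.845) and *Tspan13* for *Man1a* (0.777). None of the 8 genes was among the 3 closest to another of the 8, and for *Ankrd63* with *Fibcd1* the value within WT was 0.47.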

How the data were processed

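RNA was sequenced from frontal cortex and hippocampus of *Cyfip2* +/R87C (KI) and WT mice at PWK 1, 7, 14 and 28, with 4 libraries in each of 16 groups taken from the sample labels. The labels name a stranded mRNA kit and the methods a stranded total RNA kit. The authors quantified reads with Salmon on GRCm38, passed the estimates through tximport and normalized them in DESeq2. The submitters' notes name Salmon 0.11.2 and DESeq2 1.19.11, while the methods name later versions of both. The deposited signal is this normalized count. The table held 18432 genes, the lowest with a mean of 4.25 over the libraries. Because the values are scaled, depth was not recoverable, counting intervals are not given, and precision was judged from the 4 replicates. A library listed 61 to 248 genes at 0, and the highest correlation between 2 libraries was 0.9895.

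Gene symbols were matched through GENCODE vM21, which named 18420 of the identifiers and left 12 unnamed. Differences were tested with limma-trend (limma 3.58.1, R 4.3.3) on log2(value + 1), which understates changes of weak genes. Each fit used only the libraries of its comparison, without covariates, and genes with a mean of at least 1. Genes were called at a two-sided Benjamini-Hochberg adjusted p under 0.05 over all genes tested. There were 19 comparisons: KI against WT in 8 region and age groups, hippocampus against cortex and age steps in WT, and 4 interactions. Comparisons that share WT libraries are not independent. Nothing in the labels ties a library to a litter or culture day, so p-values measure the spread between these mice. Alternatives were other pseudocounts (0.5 and 5), a minimum mean of 10, total-sum scaling, centering on 6 pan-excitatory genes, all 64 libraries in 1 fit, sample weights, a replicate block, and leaving out each library. Scripts were tested on simulated data.

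The 8 genes and all lists were chosen with earlier results of these data known. All 8 were counted in every comparison, and values are given for those called and for some that were not. From each other list at most 3 genes were planned to be named, those called with the smallest p in hippocampus at PWK 14. Beyond these, some were named after their values were seen. They are *Necab2*, *Adcy5*, *Ntf3*, *Nectin3*, *Cpne4*, *Dsp* and *C1ql2* in hippocampus at PWK 28. They also include *Ppp1r1b*, *Gad2* and *Gfap* in cortex, and *Aldh1l1*, *Slc1a3* and *Gja1* in hippocampus. 1 gene of the other CA1 list is not reported here and was left out of that list's counts. Likeness used genes with a mean of at least 50.

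Replicate numbers run from 1 to 4 in each group. Over 12819 genes with a mean of at least 100, deviations from the group mean of equal numbers correlated above 0.1 in every pair for 0 of 8 KI and WT group pairs, 2 of 8 hippocampus and cortex group pairs and 0 of 3 WT age pairs. The 2 were WT mice at PWK 1 (0.102 to 0.256) and KI mice at PWK 28 (0.239 to 0.443), both dissected for both regions. The fits reported are without the block, and a blocked value stands beside them where it changed a call.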

Additional observations from a re-analysis of the deposited data

Results flagged for a closer look

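In a group of 4 libraries, a value whose gap to its nearest neighbor, as a share of the range, exceeded Dixon's critical value was singled out. This held for 10 of 128 gene and group combinations, where chance gives about 1 in 20. *Fibcd1* stood alone in 3 WT groups, at 204.5 in cortex at PWK 1 replicate 1 (others 128.2 to 137.6), at 181.1 in cortex at PWK 7 replicate 2 (248.8 to 252.2) and at 5662 in hippocampus at PWK 7 replicate 2 (4294 to 4328). *Mpped1* did so in 4 groups, at 12444 in WT cortex at PWK 1 replicate 1 (15822 to 16316), at 7262 in WT hippocampus at PWK 14 replicate 2 (6449 to 6477), at 6260 in WT hippocampus at PWK 28 replicate 2 (5835 to 5853) and at 5228 in KI hippocampus at PWK 28 replicate 1 (5917 to 6049). *Man1a* was at 1234 in WT hippocampus at PWK 1 replicate 4 (1466 to 1506), *Amigo2* at 295.5 in WT cortex at PWK 14 replicate 3 (232 to 238.3) and *Rgs14* at 3649 in KI hippocampus at PWK 28 replicate 3 (2323 to 2527). None of the 10 was a *Wfs1*, *Pou3f1* or *Pcp4* value.

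The genotype difference differed between groups for 2 genes by the interaction in limma: *Fibcd1* between PWK 14 and PWK 7 in hippocampus (−1.46, limma adjusted p = 0.000955) and *Wfs1* between hippocampus and cortex at PWK 28 (−0.39, 0.0372).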

How the results depend on the processing

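No called difference of the 8 genes reversed in any alternative. Of 2840 values recomputed, 2750 kept their side of the threshold, 50 passed it newly and 40 lost it. The number of the 8 genes called by limma for KI against WT in hippocampus at PWK 14 was 3, and became 1 with centering on pan-excitatory genes, 5 with all 64 libraries in the fit and 1 with the replicate block, and at PWK 28 it went from 2 to 1 with all 64 libraries. In cortex at PWK 28 it went from 2 to 4 with centering, and 1 gene more was called with sample weights in both regions at PWK 14 and 28, with centering in hippocampus at PWK 28, with all 64 libraries in cortex at both ages, and with total-sum scaling and the replicate block in cortex at PWK 28. Between WT ages it went from 0 to 1 with sample weights (PWK 14 against 7) and from 3 to 1 with all 64 libraries (PWK 28 against 14). The region interaction at PWK 14 went from 0 to 1 with total-sum scaling and with all 64 libraries, and at PWK 28 from 1 to 2 with centering and 0 with all 64 libraries. For the age interaction (PWK 14 against 7) it went from 1 to 3 with total-sum scaling, 3 with all 64 libraries and 2 with sample weights. The cause was not tested.

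Leaving out 1 library gave 1 to 4 genes in hippocampus at PWK 14, 2 to 3 at PWK 28, 2 to 3 in cortex at PWK 14, 1 to 3 at PWK 28 and 0 to 0 at PWK 1 and 7 in both regions. Between WT regions it gave 6 to 7 at PWK 1 and 8 to 8 at the other ages. Between WT ages it gave 8 to 8, 0 to 1 and 2 to 4 in order of age. For the interactions it gave 0 to 1 and 0 to 3 by region at PWK 14 and 28, and 1 to 3 and 0 to 0 by age.

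In the regional comparisons whose numbers paired, the block changed the call of *Man1a* at PWK 1 and no other of the 8. With the replicate block, *Pou3f1* and *Amigo2* at PWK 14 in hippocampus had adjusted p of 0.0505 and 0.0683, but equal numbers of KI and WT libraries did not deviate together (correlations −0.293 to 0.376, mean 0.026). All genes called in that comparison numbered 2870, and 899 with centering, 6050 with all 64 libraries, 1788 with the block and 1456 (without WT replicate 1) to 3205 with a library left out. Centering moved the share of higher calls there from 49% to 84.8%, and in cortex at PWK 28 from 54.8% to 24.3%, with the all-gene median at −0.14. With total-sum scaling it moved from 56.3% to 40.6% for hippocampus at PWK 28, and for cortex from 47.8% to 60.4% (PWK 14) and from 54.8% to 43.7% (PWK 28). Without KI replicate 1, chosen after seeing the data, 17.4% of all genes were called in hippocampus at PWK 14, 8.43% as lower. Of 6 pan-excitatory genes 2 were then higher and 2 lower. Higher calls alone were found for 2 of 6 interneuron, 3 of 5 astrocyte, 1 of 5 microglial and 2 of 5 striatal genes. Depth could not be used to limit any value.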
